A study of Mus musculus with 2 samples.

Results

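Open chromatin sites lying inside protein-coding exons were examined in mouse hippocampus, in 2 libraries of DNase-seq, an assay that maps where the nuclease DNase I can cut DNA in nuclei. Each site was an autosomal peak of replicate 1, taken from the longer of its 2 deposited peak lists and overlapped by at least 1 bp by a replicate 2 peak of the same kind of list. Its midpoint lay in annotated coding sequence (a CDS feature of GENCODE release M21), and it lay over 1 kb from every annotated transcript start. The sites were thus selected on measured peak calls in both libraries. This rule gave 1435 sites out of 53668 shared autosomal peaks over 1 kb from starts, or 2.67%. Intron sites (25821) and intergenic sites (24327) made up 48.1% and 45.3% of the same set, and the other 2085 sites lay in noncoding exon sequence. The rule used the peak calls, the overlap between libraries, the gene models and the distance to starts, so these are descriptions and not findings. Of the sites, 41 overlapped another one, since the deposited list holds peaks that overlap each other, and merging left 1408 separate regions.

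Both libraries belong to 1 group. The labels give layer of hippocampus from B6CASTF1/J mice, which are first-generation hybrids between C57BL/6J and CAST/EiJ, all female and aged 14 days. Each label names 3 females, and the libraries are numbered biological replicates 1 and 2 with their own biosample identifiers under a shared donor identifier. No label says whether separate animals or pools were used, so differences between the libraries may be technical. There was no comparison between conditions, and every value below is given for each library. All 10 promoters of hippocampal neuron markers checked had a peak within 500 bp of a start in both libraries, as had 4 of 4 astrocyte, 3 of 5 oligodendrocyte, 2 of 3 microglial, 1 of 3 interneuron and 1 of 3 vessel markers. None of 7 markers of other tissues did. In whole tissue, fewer cells with an open site and less opening per cell cannot be told apart.

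DNase I cuts DNA where nucleosomes have been displaced, most often at promoters and at distal elements bound by transcription factors, and a factor sitting on its site leaves a short protected stretch called a footprint. A coding exon can hold such a site too, and its bases then carry both codons and a factor's recognition sequence. CTCF, a zinc finger protein with a long recognition sequence, binds throughout the genome and helps to set the boundaries of chromatin loops.

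The sequences of 8 sites are shown for the features described below, from the RefSeq copy of GRCm38 (mm10), each 5′ to 3′ on the strand of its gene. The C57BL/6J reference is printed, so CAST/EiJ alleles are not shown. For the 3 strongest sites, capitals mark bases inside footprints of both libraries, and sites over 300 bp are shown by their central 300 bases.
Angptl6 (chr9:20878191-20878490, minus strand): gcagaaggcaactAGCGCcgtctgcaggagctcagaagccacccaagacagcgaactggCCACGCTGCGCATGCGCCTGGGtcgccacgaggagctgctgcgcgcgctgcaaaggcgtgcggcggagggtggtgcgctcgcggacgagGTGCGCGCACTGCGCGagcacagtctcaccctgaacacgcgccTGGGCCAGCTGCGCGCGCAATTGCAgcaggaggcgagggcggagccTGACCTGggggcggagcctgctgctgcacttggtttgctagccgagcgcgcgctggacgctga
Sptbn4 (chr7:27361461-27361680, minus strand): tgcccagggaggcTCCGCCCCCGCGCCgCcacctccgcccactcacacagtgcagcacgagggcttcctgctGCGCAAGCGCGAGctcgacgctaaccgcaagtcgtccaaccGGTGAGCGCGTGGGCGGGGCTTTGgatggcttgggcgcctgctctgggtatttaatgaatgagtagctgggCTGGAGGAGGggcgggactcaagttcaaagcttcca
Fbxl22 (chr9:66511681-66511980, minus strand): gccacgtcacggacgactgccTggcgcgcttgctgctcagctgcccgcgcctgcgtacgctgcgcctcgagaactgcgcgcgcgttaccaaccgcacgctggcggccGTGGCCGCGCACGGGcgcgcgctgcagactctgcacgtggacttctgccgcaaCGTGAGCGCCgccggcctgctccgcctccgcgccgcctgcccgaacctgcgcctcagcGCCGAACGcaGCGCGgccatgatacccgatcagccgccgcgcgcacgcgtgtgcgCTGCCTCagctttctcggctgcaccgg

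The other 5 were chosen for a motif lying inside a footprint of both libraries, and capitals mark the motif: CTCF in Hey1 and Synpo2l, NRF1 in Zfp771, EGR in Frem2 and NFI in Chd9.
Hey1 (chr3:8664641-8664800, minus strand): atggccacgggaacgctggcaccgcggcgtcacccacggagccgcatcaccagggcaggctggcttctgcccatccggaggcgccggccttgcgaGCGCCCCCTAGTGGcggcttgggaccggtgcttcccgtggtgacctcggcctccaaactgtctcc
Synpo2l (chr14:20661041-20661340, minus strand): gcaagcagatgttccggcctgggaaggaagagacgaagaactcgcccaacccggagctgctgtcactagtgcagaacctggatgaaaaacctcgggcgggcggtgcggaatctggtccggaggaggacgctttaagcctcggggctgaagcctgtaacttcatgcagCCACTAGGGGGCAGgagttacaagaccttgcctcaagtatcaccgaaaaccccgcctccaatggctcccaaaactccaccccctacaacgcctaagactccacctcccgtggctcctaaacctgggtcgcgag
Zfp771 (chr7:127254061-127254360, plus strand): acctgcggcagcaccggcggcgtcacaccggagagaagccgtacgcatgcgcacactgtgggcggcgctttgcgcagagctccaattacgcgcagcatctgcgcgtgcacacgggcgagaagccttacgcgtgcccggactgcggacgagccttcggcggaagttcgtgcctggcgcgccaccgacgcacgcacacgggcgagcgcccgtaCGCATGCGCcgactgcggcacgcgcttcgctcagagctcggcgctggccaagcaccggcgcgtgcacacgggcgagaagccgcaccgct
Frem2 (chr3:53525761-53525920, minus strand): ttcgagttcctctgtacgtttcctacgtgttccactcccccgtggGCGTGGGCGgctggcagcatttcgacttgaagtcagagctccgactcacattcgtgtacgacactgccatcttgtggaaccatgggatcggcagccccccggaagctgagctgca
Chd9 (chr8:91051141-91051340, plus strand): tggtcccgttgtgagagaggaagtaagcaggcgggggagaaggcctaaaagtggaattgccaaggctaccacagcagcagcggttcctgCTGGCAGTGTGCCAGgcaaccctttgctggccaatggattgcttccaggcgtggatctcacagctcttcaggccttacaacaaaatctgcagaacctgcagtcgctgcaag

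The strongest sites lay in genes of unlike roles. Ranked by the smaller of its percentiles among autosomal peaks of each library, the site in Angptl6, which encodes a secreted angiopoietin-like protein, came first. Its peak signal, a deposited value whose scaling is not stated, was 22.0 in replicate 1 and 7.68 in replicate 2. The site lay wholly in coding exon 1 of 5, at chr9:20878161-20878520. The site in Sptbn4, the spectrin of axon initial segments and nodes of Ranvier, had 15.7 and 8.31 and crossed the end of coding exon 32 of 35. Fbxl22, an F-box protein, followed with 12.9 and 4.76 in its last coding exon, then 1700008O03Rik with 11.4 and 4.54. All 4 stood at or above the percentile of 97.6 in both libraries.

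Further sites among the 15 strongest lay in genes of transcription factors and of neuronal or general cell functions. Zfp771, a zinc finger protein, had signals of 12.2 in replicate 1 and 4.09 in replicate 2, within its last coding exon. The erythroid zinc finger factor Klf1 had 9.34 and 2.98, and Zfp219 had 7.49 and 2.75. Hey1, a transcriptional repressor downstream of Notch, had 8.89 and 2.49. The rest included the vesicle priming gene Unc13a (7.67 and 2.56), the autophagy gene Epg5 (8.60 and 2.74), the neuregulin gene Nrg2 (8.92 and 2.85) and the proteasome gene Psmc2 (8.59 and 3.50). Lrrc24 (9.32 and 5.42), Srcin1 (8.70 and 2.59) and Def6 (6.78 and 2.98) completed the 15. Replicate 1 was the higher library at each of them.

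**Figure D1:**
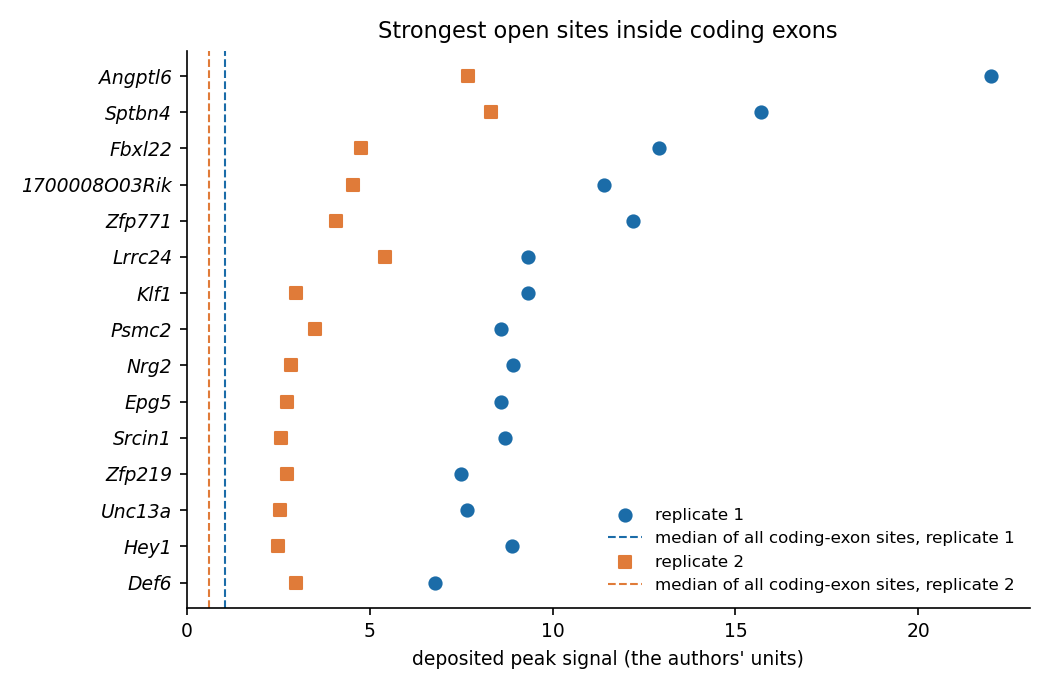
Deposited peak signal (horizontal axis, the authors' units) of the 15 strongest coding-exon sites, 1 row per gene, with circles for replicate 1, squares for replicate 2 and dashed lines at the medians of all 1435 sites (1.06 and 0.600). Every one of the 15 lies above both medians, and Angptl6 reaches 22.0 in replicate 1.

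Most coding-exon sites were far weaker. Signal over the 1435 sites had a median of 1.06 in replicate 1 (range 0.160 to 22.0) and 0.600 in replicate 2 (range 0.144 to 8.31). Shared intron sites had medians of 0.919 and 0.733, and shared intergenic sites 0.821 and 0.710. Coding-exon sites therefore had a higher median than both in replicate 1 and a lower one in replicate 2. Noncoding exon sites had 1.09 and 0.773, above coding-exon sites in both libraries. The median width was 200 bp, against 189 bp at intron sites and 190 bp at intergenic sites. Sites nearest the distance limit showed no common level: Tut1 at 1001 bp from a start had 0.980 in replicate 1 and 0.623 in replicate 2, Paip1 at 1006 bp had 0.327 and 0.335, and Hnrnpul2 at 1008 bp had 1.99 and 1.40. Just inside the limit and so left out were Ier5l at 999 bp (2.05 and 0.513), Tspan9 at 997 bp (1.53 and 0.900) and Nup54 at 996 bp (0.821 and 1.10).

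The libraries differed in how much coding sequence they called open. Coding exons held 3240 of the autosomal peaks over 1 kb from starts in replicate 1 (4.17%) and 2245 in replicate 2 (1.80%). In replicate 1, 44.3% of these coding-exon peaks were overlapped by a peak of the other library, against 69.2% of all peaks over 1 kb from starts. In replicate 2 the share was 60.6%, against 43.0% of all. The overlap is part of the rule, so nothing is read from these shares. The same contrast appeared per base in the deposited false discovery rate (FDR) runs, which list bases with an FDR of the cut rate under 0.05. Of the 24.0 Mb of coding sequence over 1 kb from starts, 3.93% was listed in replicate 1 and 2.45% in replicate 2. Introns had the opposite order, with 0.987% in replicate 1 and 1.69% in replicate 2, as had intergenic sequence (0.744% and 1.36%).

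Because every site is a replicate 1 peak and needs only 1 bp of overlap in replicate 2, its near complete FDR cover in replicate 1 follows from the rule. FDR runs covered 99.0% of the bases of coding-exon sites in replicate 1 and 81.9% in replicate 2, where intron sites had 98.8% and 91.2%. A peak of the stricter, shorter list overlapped 63.9% of coding-exon sites in replicate 1 and 66.4% in replicate 2, against 57.7% and 77.3% of intron sites. Both stricter lists held a peak at 726 coding-exon sites (50.6%), near the 53.8% of all shared distal sites.

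Coding-exon sites were richer in CpG than other distal sites. Across coding-exon sites the CpG observed over expected ratio, which is 1 when CpG is as frequent as the C and G content would give, had a median of 0.444, against 0.246 at intron sites and 0.263 at intergenic sites. GC content had medians of 57.5%, 53.1% and 52.3% in the same order. Repeats covered a mean of 3.98% of coding-exon sites, 8.18% of intron sites and 8.54% of intergenic sites. Against all coding sequence, sites included, the central 200 bp of the sites also had more CpG. The median was 0.440, against 0.321 over 117837 coding windows of 200 bp lying over 1 kb from starts.

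The number of sites per 1000 coding windows was 5.27 at a CpG ratio under 0.2, 9.87 from 0.2 to 0.4, 14.0 from 0.4 to 0.6, 21.4 from 0.6 to 0.8 and 70.0 at 0.8 and over. The last bin took in 14.8% of the sites by the CpG ratio of their own central 200 bp, against 2.57% of all coding windows. The ratio of replicate 1 to replicate 2 signal followed the same order. Its median at coding-exon sites was 1.43 in the lowest CpG bin and 2.82 in the highest, and over all bins 1.83. At intron sites it was 1.29 and 2.13, and over all 1.38. In each of the 5 bins the median ratio was higher at coding-exon sites than at intron sites, and the quartile ranges overlapped. Library depth in reads is unknown here, and its part in the ratio was not tested.

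**Figure D2:**
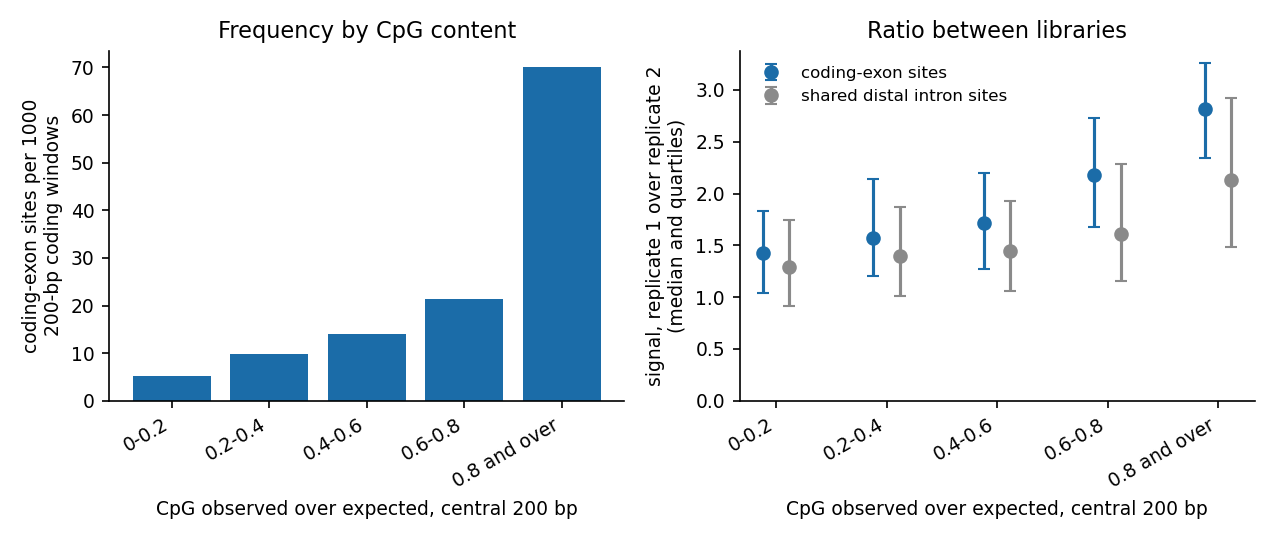
Left: coding-exon sites per 1000 coding windows of 200 bp, by CpG observed over expected ratio of the central 200 bp. Right: ratio of replicate 1 to replicate 2 signal, median with quartiles, at coding-exon sites (blue) and shared distal intron sites (grey); frequency climbs to 70.0 in the highest bin, and the site ratio to 2.82.

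Single sites diverged much further between the libraries. The site in Crh, the gene of corticotropin-releasing hormone, had signals of 6.55 in replicate 1 and 1.11 in replicate 2, a ratio of 5.91 and the highest of all. Alpi, an intestinal alkaline phosphatase, followed with 2.19 and 0.381, and the transcription factor gene Dmrta2 with 1.57 and 0.277. At the other end, Ckap5, a microtubule polymerase, had 0.220 in replicate 1 and 0.808 in replicate 2. Sgo1, which protects cohesin at centromeres, had 0.327 and 1.13, and the germline gene Tdrd5 0.304 and 0.871. The sites with the lowest ratios were also narrow, at 79 bp in Ckap5, 132 bp in Sgo1 and 50 bp in Tdrd5.

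Sites were densest in coding runs of middle length, and denser at the ends of the coding sequence than in internal exons. Per Mb of coding sequence over 1 kb from starts there were 59.7 sites overall. In merged coding runs under 100 bp there were 28.6 per Mb, and in runs of 500 to 1000 bp 86.5 per Mb, with 50.6 per Mb in runs over 2000 bp. For exon positions the Mb come from 1 transcript per gene, while a site could be placed by another transcript of its gene, so these densities are approximate. Internal coding exons held 852 of the sites at 49.5 per Mb. The last coding exon of a transcript held 391 at 88.9 per Mb, the first held 86 at 90.5 per Mb, and genes with a single coding exon held 106 at 95.6 per Mb. Median CpG ratios were 0.400 at sites in internal exons, 0.529 in the last, 0.601 in the first and 0.690 in single exons.

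Density also varied with distance from a start, without a steady order. Sites had to lie wholly over 1 kb from starts but were counted at their midpoints. This lowers the value at 1000 to 1500 bp (67.4 per Mb) by construction. The highest value was 90.1 per Mb at 1500 to 2000 bp from the nearest start, and the lowest 49.2 per Mb at 10 to 20 kb. Beyond 50 kb the density was 63.9 per Mb, from 60 sites. The median distance was 5050 bp, against 11566 bp at intron sites. RefSeq annotated a transcript start within 1 kb of 75 of the sites (5.23%), against 2.67% of coding windows, and 60 of the 75 had such a start among model transcripts. These 75 sites had median signals of 1.60 in replicate 1 and 0.721 in replicate 2, against 1.04 and 0.591 at the other 1360. Angptl6, Psmc2 and Unc13a were among the 75. The Angptl6 site, the strongest of all, thus lay within 1 kb of a RefSeq start and 1207 bp from the nearest GENCODE M21 start.

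**Figure D3:**
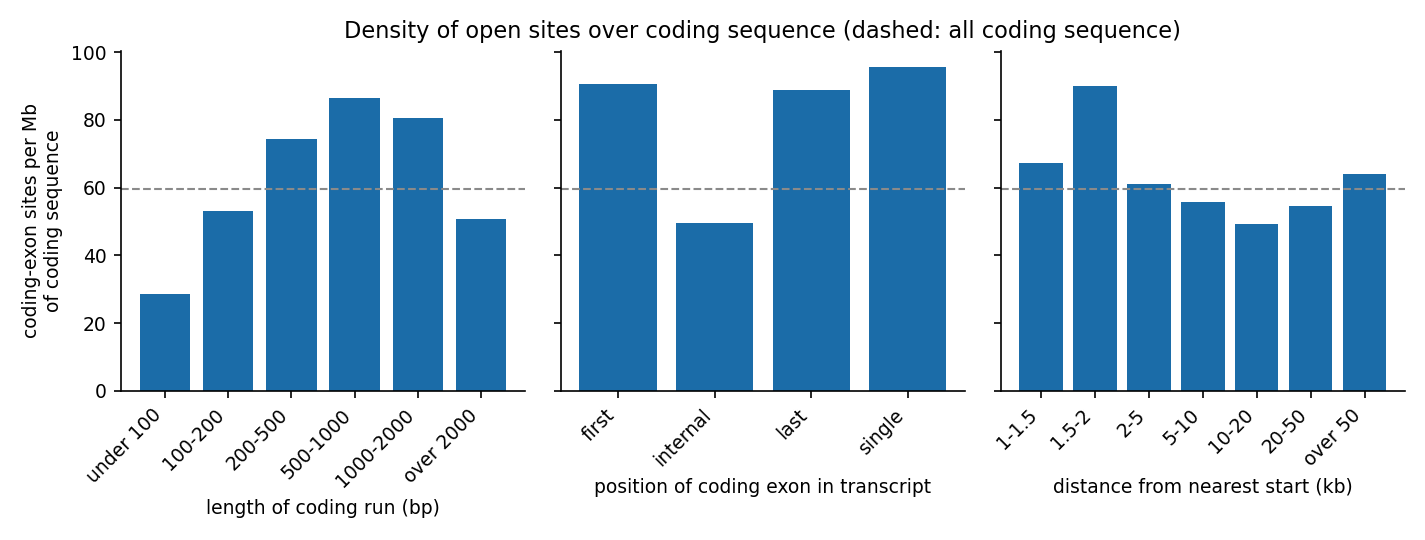
Coding-exon sites per Mb of coding sequence over 1 kb from starts (vertical axis), by length of the merged coding run in bp, by place of the coding exon in its transcript, and by distance from the nearest start in kb. The dashed line marks 59.7 per Mb for all such sequence, and internal exons (49.5) lie below it while the first, last and single exons lie above.

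Most bases of the sites were coding. Of the 1435, 583 (40.6%) lay wholly inside a coding run, 545 crossed 1 of its ends and 307 crossed both. The median share of a site that was coding was 88.6%. Median signals were 1.03, 1.04 and 1.12 in replicate 1 and 0.536, 0.606 and 0.710 in replicate 2, in the order inside, 1 end and both ends. Taking all sites together, the coding part held 80.6% of their bases, and footprints covered 15.3% of it in replicate 1 and 10.8% in replicate 2. Of the remaining part footprints covered 11.4% and 8.96%.

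Footprints were found at most coding-exon sites. A deposited footprint overlapped 1255 sites (87.5%) in replicate 1 and 1151 (80.2%) in replicate 2, against 87.3% and 85.5% of intron sites. Both libraries had one at 1061 sites (73.9%), near the 77.1% of all shared distal sites. There were 11.9 footprints per kb of site in replicate 1 and 8.60 in replicate 2, against 11.8 and 10.8 at intron sites. Wide sites were among those with the most footprints. The 640 bp site in Tchh, the hair follicle protein trichohyalin, had 21 in replicate 1 and 7 in replicate 2. The 500 bp site in Lor, the skin barrier protein loricrin, had 13 and 9.

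Footprinted bases fell almost evenly over the codon positions. A footprint is an unbroken run of bases that takes in all 3 positions in turn, so near equal shares follow from its form. Nothing about binding is read from them. Codon position 3, where many changes leave the amino acid as it is, held 33.2% of footprinted coding bases in each library (n = 40223 bases in replicate 1 and 28352 in replicate 2), against 33.4% of the sites' other coding bases. The base content did differ, at all 3 positions. G or C stood at 69.2% of the position 3 bases of the sites, against 56.4% in all coding sequence over 1 kb from starts. Inside footprints of replicates 1 and 2 this share was 74.2% and 72.3%. Positions 1 and 2 of the sites had 62.8% and 49.1%, against 54.9% and 41.7% in all such coding sequence. Inside footprints they had 70.2% and 56.1% in replicate 1 and 69.0% and 54.5% in replicate 2. Bases at which any change is silent made up 17.9% of the sites' coding bases and 15.4% of all coding bases. CpG dinucleotides took in 11.9%, 9.83% and 11.5% of the sites' bases at codon positions 1, 2 and 3, against 5.92%, 4.72% and 5.04% of all coding bases, so all 3 positions shared the difference.

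Of the motifs found in at least 10 sites, CTCF had the highest ratio to coding windows, which take in the sites as well. Its core motif, searched on both strands like the other 26 motifs, matched the central 200 bp of 53 sites (3.69%), against 0.0713% of coding windows, a ratio of 51.8. Intron sites had it in 5.19%. All 53 sites had a footprint in both libraries, against 72.9% of the sites without a core. At 51 of the 53 the match itself lay in a footprint of both. The 53 had median signals of 2.72 in replicate 1 and 1.10 in replicate 2, against 1.03 and 0.588 at the 1382 sites without a core. Intron sites differed in the same direction, with medians of 2.20 and 1.32 with a core and 0.897 and 0.715 without. Both stricter lists held a peak at 47 of the 53 coding-exon sites (88.7%), against 49.1% of those without a core. The strongest with the match in a footprint of both libraries were those in Epg5, in Hey1, whose sequence above carries the core on the strand opposite to the gene, and in Ksr1, a scaffold of Ras signalling (6.55 and 2.47). Next came Synpo2l, an actin-binding protein of muscle, with 6.50 in replicate 1 and 4.86 in replicate 2 and the core on the gene's own strand.

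Counted from the motif, most coding CTCF cores lay in peaks. Of 85 matches centred in coding exons over 1 kb from starts, 52 lay inside a peak of replicate 1, or 61.2% (95% Wilson interval 50.5 to 70.8%), and 56 in a peak of replicate 2, or 65.9% (55.3 to 75.1%). Peaks of both libraries held 49 of them (57.6%, 47.0 to 67.6%). Of 2480 intron matches 54.7% (52.8 to 56.7%) lay in peaks of both, and of 2751 intergenic matches 55.0% (53.2 to 56.9%). The coding interval holds both values, and it covers counting error only. By contrast, 2.89% of all coding bases over 1 kb from starts lay in peaks of replicate 1 and 1.82% in peaks of replicate 2. In replicate 2 alone, intron matches were in peaks at 72.2% (70.4 to 73.9%), an interval that overlaps the coding one. Shares were higher for the 240 matches in noncoding exons. In replicate 1 it was 70.8% (64.8 to 76.2%) and in peaks of both 67.9% (61.8 to 73.5%), and both intervals overlap the coding ones. In replicate 2 it was 80.8% (75.4 to 85.3%), an interval that begins just above the end of the coding one. No difference was tested.

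Where a coding CTCF core lay in peaks of both libraries, a footprint overlapped it by at least 1 bp in 98.0% in each. Intron cores had 96.6% in replicate 1 and 96.8% in replicate 2, and intergenic cores 95.3% and 97.4%, so coding cores were close to both. Strand and frame were not assigned to 8 coding matches that did not lie wholly in a coding exon of the best ranked transcript. Of these 8, 3 were in peaks of both libraries. The other coding matches were read from the gene's own strand in 35 cases, of which 21 were in peaks of both libraries. From the opposite strand there were 42, of which 25 were. The codon position of the first base of the match varied. On the gene's own strand, 9, 5 and 21 matches began at codon positions 1, 2 and 3, and 5, 4 and 12 of these were in peaks of both libraries. On the opposite strand the numbers were 17, 16 and 9, with 12, 7 and 6 in peaks of both. Open cores were thus present in every reading frame and on both strands.

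**Figure D4:**
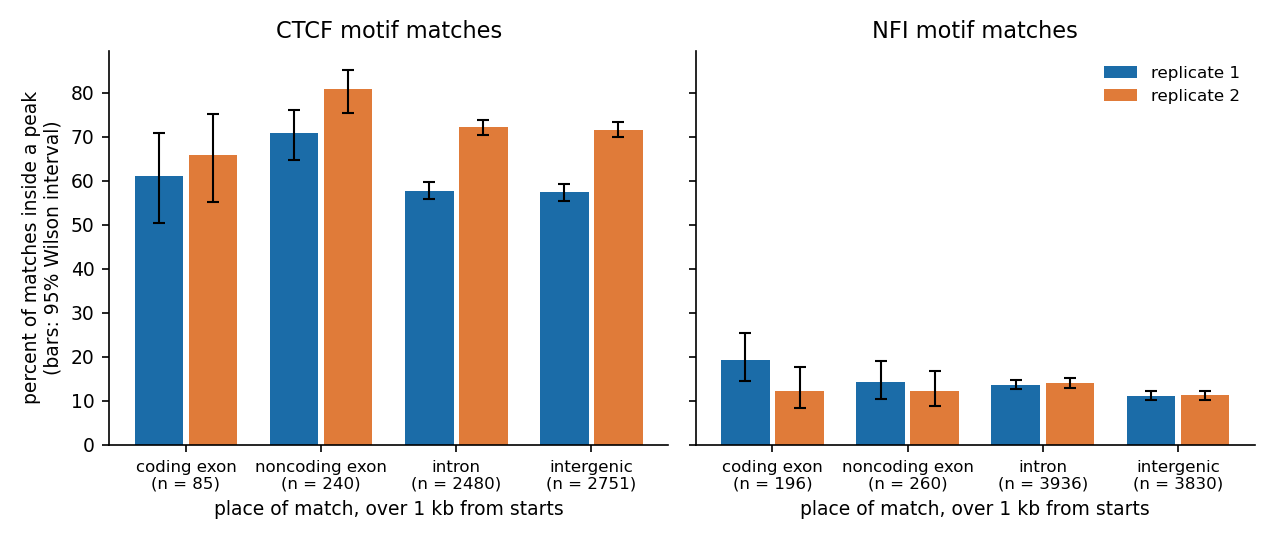
Share of motif matches over 1 kb from starts that lie inside a peak (vertical axis, percent), by place of the match and library, for CTCF (left) and NFI (right), with 95% Wilson intervals. Coding CTCF matches stand at 61.2% and 65.9%, NFI matches at 19.4% and 12.2%.

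After CTCF, the motifs most raised over coding windows among those matching at least 10 sites were NRF1, EGR and NFI. NRF1, a regulator of mitochondrial and housekeeping genes (GCGCATGCG), matched 11 sites (0.767%), against 0.0721% of coding windows and 0.225% of intron sites. EGR, the family of activity-induced zinc finger factors (GCGTGGGCG), matched 10 sites (0.697%), against 0.0713% and 0.159%. NFI, which acts in glial and neuronal maturation, matched 16 sites (1.11%), against 0.149% and 1.44%. The match lay in a footprint of both libraries at 7 of the 11 NRF1 sites, 5 of the 10 EGR sites and 14 of the 16 NFI sites. Among intron matches in peaks of both libraries, footprints of both overlapped 69.2% for NRF1, 47.7% for EGR and 83.4% for NFI. Those intron shares count matches and not sites. The NRF1 motif overlaps its own reverse complement, and the EGR motif shares its last letters with the SP motif GGGCGG, so these matches are not independent.

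The sequences above show the matches in place. Zfp771 carried 2 NRF1 matches, and the capital one lay wholly in coding sequence. The motif in Sptbn4, shown above by its footprints, was an EGR match with 0 coding bases, so it lay outside the exon part of that site. The EGR match of Frem2, an extracellular matrix protein (4.31 in replicate 1 and 2.32 in replicate 2), and the NFI match of Chd9, a chromatin remodeller (3.42 and 1.22), were wholly coding. The NFI match of Dnmt3c, a germline DNA methyltransferase of rodents (3.57 and 2.58), had 8 coding bases of 15. Among all matches in coding exons, NFI lay in peaks of both libraries at 8.16% of 196, NRF1 at 9.52% of 105 and EGR at 7.69% of 91. Intron matches had 8.87%, 3.97% and 9.34% in the same order. By this share in both libraries, only NRF1 was higher in coding exons than in introns. Single libraries differed for NFI and EGR. In replicate 1, NFI had 19.4% in coding exons and 13.6% in introns, and EGR 22.0% and 13.2%. In replicate 2, NFI had 12.2% and 14.0%, and EGR 9.89% and 12.1%. NRF1 was higher in coding exons in each library. For peaks of both libraries, outside soft-masked repeats, NRF1 had 9.62% in coding exons, 6.46% in introns, 9.78% in intergenic sequence and 13.7% in noncoding exons. With repeats included, intergenic matches had 6.84% for NFI, 6.46% for NRF1 and a share above the coding one for EGR. Noncoding exon matches had 6.92% for NFI, 11.0% for NRF1 and 7.84% for EGR. These differences were not tested.

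More common motifs moved less. SP (GGGCGG) matched 13.9% of coding-exon sites, 5.08% of coding windows and 8.31% of intron sites, and TFAP2 (GCCNNNGGC) 14.6%, 6.89% and 9.39%. Both motifs are rich in G and C. The E-box CAGCTG, bound by Ascl factors, matched 29.3%, 15.3% and 23.5%, and the E-box CAGATG, bound by NeuroD factors, 26.5%, 18.3% and 27.9%. Motifs rich in A and T were rarer at the sites: the homeobox motif TAATTA matched 0.976%, 2.57% and 3.59%, and the MEF2 motif 0.348%, 1.39% and 1.56%. The AP-1 motif TGANTCA stood at 4.32% of coding-exon sites, 4.59% of coding windows and 7.36% of intron sites. The REST motif matched none of these sequences, which says only that its letters are not in the windows searched.

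**Figure D5:**
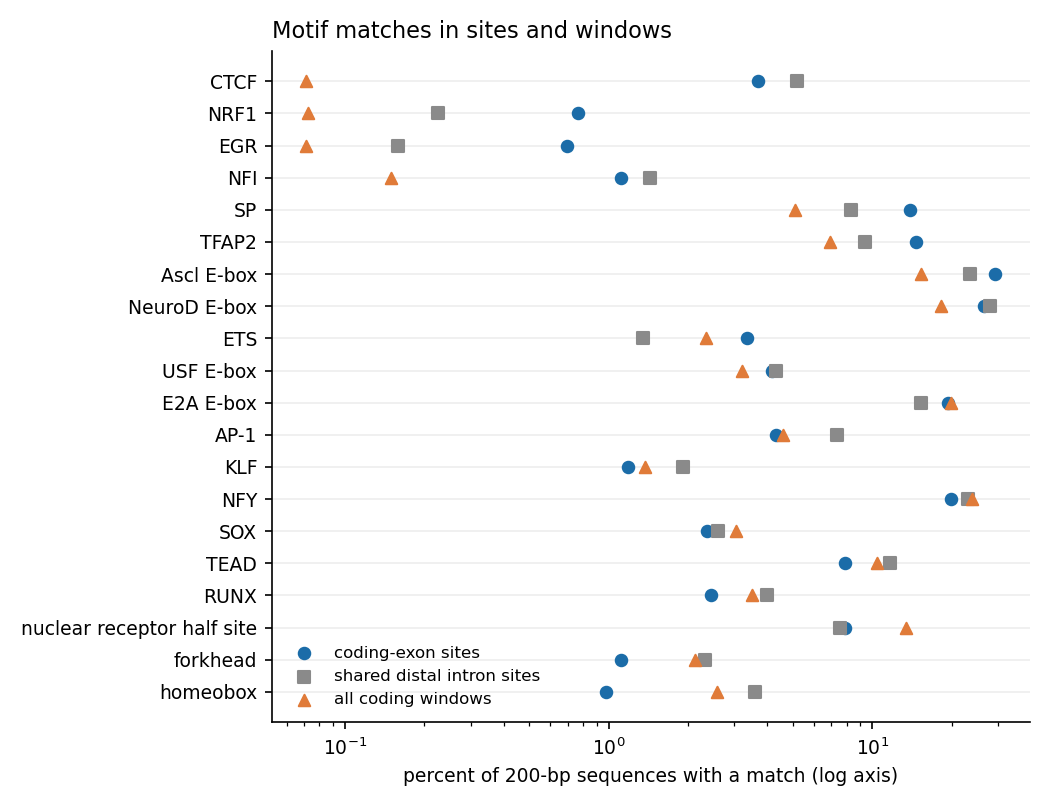
Percent of 200-bp sequences with at least 1 match (horizontal log axis) for each motif found in 10 or more coding-exon sites: coding-exon sites (circles), shared distal intron sites (squares) and all coding windows (triangles). Motifs run from the highest ratio of sites to coding windows (CTCF, 51.8) down to the lowest (homeobox, 0.380).

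Coding-exon sites were spread over many genes. Of 18312 genes with coding sequence over 1 kb from starts, 1283 (7.01%) held a site: 1152 held 1, 110 held 2 and 21 held 3 or more. A promoter peak in both libraries, within 500 bp of a start, was present at 78.5% of the 1283 genes, against 68.3% of the 17029 others. Genes with a site also had more such coding sequence, with medians of 1654 and 898 bases. Among the 4578 genes with the most such sequence, the promoter shares were 84.0% with a site and 77.7% without, and among the 4578 with the least 69.6% and 60.3%. The 4578 next to the least had 77.2% and 67.0%, while the 4578 next to the most had 70.5% and 69.6%, so the gap was small in that group.

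Trichohyalin (Tchh) held the most sites, 6, all in its last coding exon of 4659 bases, which merged into 4 regions. Their signal ran from 0.555 to 1.72 in replicate 1 and from 0.300 to 0.681 in replicate 2. The giant linker genes Dst (dystonin) and Syne1 (nesprin-1) held 4 each, spread over 25.3 and 25.1 kb of coding sequence. Pcdh17, a protocadherin, and Irs1, the insulin receptor substrate, held 4 each in 2.27 and 3.62 kb, and those of Irs1 merged into 3 regions. Sptbn4, the Wnt receptor gene Fzd8 and the RNA-binding protein gene Mex3b held 3 each. The 3 Mex3b peaks overlapped and formed 1 region of its last coding exon, with signals of 1.84 to 2.39 in replicate 1 and 0.513 to 0.981 in replicate 2.

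Gene families, matched by symbol, differed in density around the 59.4 sites per Mb of all genes. Regulators of development stood high. In bHLH, Sox and Fox genes, 16 sites in 13 of 83 genes gave 209 per Mb, from 0.0766 Mb of coding sequence. In homeobox genes, 11 in 10 of 113 gave 141 per Mb, from 0.0778 Mb. Against 7.01% of all genes, 15.7% and 8.85% of the genes in these families held a site. Their strongest members were Hey1, Sox8 (5.08 in replicate 1 and 1.60 in replicate 2) and Neurog2 (3.91 and 0.958), and Nkx2-2 (4.88 and 2.36), Pou1f1 (3.98 and 2.06) and Pou3f3 (2.20 and 0.773). Their median CpG ratios were 0.504 and 0.686. C2H2 zinc finger genes stood lower, with 35 sites at 43.5 per Mb, and chromatin regulators had 20 at 60.1 per Mb. Chd7 (4.32 and 2.16), Dnmt3c and Kmt2a (2.96 and 1.25) were the strongest of the chromatin regulators.

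Of the 4 neuronal families, 3 stood above the value for all genes. Synaptic scaffolds and release proteins held 21 sites in 16 of 72 genes, or 132 per Mb, led by Unc13a, Shank3 (3.56 in replicate 1 and 1.29 in replicate 2) and Dlgap3 (3.15 and 0.969). Potassium channels had 13 sites at 115 per Mb, with Kcnj9 (2.39 and 0.877), Kcnh4 (1.44 and 0.813) and Kcnk12 (1.82 and 0.692). Neurotransmitter receptors had 15 at 113 per Mb, with the adrenergic receptor Adra2c (3.36 and 1.13), the GABA receptor subunit Gabbr2 (1.82 and 1.30) and the kainate receptor subunit Grik5 (2.21 and 0.865). Calcium, sodium and Trp channels had 13 at 52.3 per Mb, below the value for all genes, with Cacna1i (2.01 and 0.998), Cacna1c (1.35 and 0.738) and Cacna1a (1.70 and 0.710).

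Cytoskeletal and motor genes held the most sites of any family, 59 in 43 of 147 genes, at 81.8 per Mb. After Sptbn4, their strongest were in the kinesin genes Kif26b (7.01 in replicate 1 and 2.15 in replicate 2) and Kif19a (7.35 and 1.75). Adhesion and axon guidance genes had 28 sites at 76.7 per Mb, with Ntng1 (3.01 and 1.46), Robo3 (2.45 and 1.09) and Dscam (2.34 and 1.10). Lrp and Notch genes had 9 at 79.7 per Mb, with Notch3 (4.24 and 1.37) and Lrp1 (1.91 and 0.836) among the strongest. Solute carriers had 28 at 63.9 per Mb, led by Slc4a5 (5.58 and 2.60), Slc1a6 (4.63 and 2.41) and Slc8a3 (2.77 and 1.61). Extracellular matrix genes had 24 at 56.4 per Mb, with Frem2, Adamts5 (3.21 and 1.23) and Adamts17 (1.69 and 1.31).

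Keratins, the intermediate filaments of epithelia, held 7 sites in 6 of 48 genes, at 167 per Mb, with Krt26 (3.05 in replicate 1 and 1.55 in replicate 2), Krt88 (3.18 and 0.871) and Krt40 (1.24 and 0.479). The promoter of Krt5, an epithelial keratin checked as a marker, had no peak in either library. Olfactory and vomeronasal receptor genes stood lowest of the 15 families. They held 1 site among 475 genes, or 2.37 per Mb, and its signal was 0.182 in replicate 1 and 0.173 in replicate 2. These counts are small, and the densities have no error between libraries because the rule joins both.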

How the data were processed

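DNase-seq was measured in 2 libraries. Per the deposited file listings, each file came from the filtered mm10 alignment of its own library, with nothing pooled; the aligner and callers are not named there. The authors' peak lists give a signal per peak whose scaling is not stated. The deposited FDR files (q-values) list only runs under 0.05. The deposited footprint score is 0.01 in every row, so only positions were used. Read counts were not analysed here, and depth is unknown.

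Files were intersected with GENCODE M21 and the RefSeq copy of GRCm38.p6 in Python 3.11.15 with numpy 2.4.6 and pandas 2.3.3. No interval ran past a chromosome end. Where several replicate 2 peaks overlapped a site, the highest signal was taken. Motifs were searched as exact consensus letters on both strands in the central 200 bp, and over all autosomes. Repeats are soft-masked bases. Exon numbers follow, for each site, the best ranked transcript with coding sequence over its midpoint, so sites of 1 gene can follow different transcripts. Transcripts in the basic set ranked first, then those with the longest coding sequence. The Mb by exon position come from the best ranked transcript of each gene only. Interval code was checked on simulated data.

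Sites, motifs and gene families were chosen with earlier results of these data known. The symbol patterns of the families were tightened, and the motif matches over the autosomes added, after values had been seen. Sites named were the 15 strongest, those of the 8 genes with most sites, the strongest with each leading motif in footprints of both libraries, the 3 strongest per family with at least 5 sites, those with most footprints or extreme ratios, and those at the distance limit; some of these are not reported here. Nothing was tested, because peaks were chosen on their signal and 1 group gives no comparison. The 10 alternatives changed the list, overlap, assignment to coding sequence, distance, gene models, starting library and use of each library.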

Additional observations from a re-analysis of the deposited data

How the results depend on the processing

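Of 94 values of 10 results under 10 alternatives, 67 stayed within 1.5 times the count, the 95% Wilson interval of the share or 1 SD between the libraries, and 27 moved beyond that. For signal this SD is between the library medians of 1.06 and 0.600, whose scaling is not stated, so it is a loose limit. Replicate 2 signal went from 0.600 to 0.894 under the stricter lists and still counted as within it. The stricter lists left 725 sites, 2.52% of shared distal sites, with a replicate 1 signal of 1.67, a CpG ratio of 0.487, footprints at 95.2% and 93.0% (replicates 1 and 2) and CTCF cores at 6.34%. The share of shared distal sites in coding exons was 2.42% with 50% of the peak covered, 2.49% with 50% of the bases coding, 3.14% at 500 bp, 2.26% at 2 kb, 3.13% with starts of protein-coding transcripts and 2.53% starting from replicate 2. Asking for 50% coverage gave footprints at 89.2% and 86.5%, and starting from replicate 2 at 85.0% and 85.0%. Leaving out a library ranged from 2245 to 3240 sites, 1.80% to 4.17% of distal peaks and CTCF cores at 1.70% to 2.49%. Without replicate 2 the replicate 1 signal was 0.676 and footprints stood at 74.8%; without replicate 1 footprints stood at 77.6%, and the CpG ratio lay between 0.395 and 0.450 without one or the other. The share at codon position 3 stayed between 33.1% and 33.3%, which the unbroken form of footprints gives, yet its values count among the 67. Values of a library left out were not computed. The cause of these shifts was not tested, apart from fewer or more peaks entering by construction. No paired analysis was possible because there is 1 group. Small motif counts limit precision, and the number of reads behind a site is unknown.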
